A study of Mus musculus with 4 samples.

Results

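The 10 genes described here encode enzymes that make serine, proline and asparagine and that carry carbon units on folate: Asns, Phgdh, Psat1, Psph, Pycr1, Aldh18a1, Shmt1, Shmt2, Mthfd2 and Aldh1l2. They were chosen by name, and all 19 probes that the array's own names or the platform annotation assign to them were taken, of 45281 probes on the array. Tests could be made for 15 of these probes and 9 of the 10 genes, among 10405 named genes tested in all. RNA was measured in lineage-negative bone marrow, the fraction rich in progenitors that remains once cells with mature blood cell antigens are removed, on 4 Illumina mouse bead arrays, 1 per sample. The deletion group was Atad3afl/flMx1Cre (2 samples), with floxed alleles of Atad3a, which encodes an inner mitochondrial membrane ATPase, and a Cre recombinase under the interferon-inducible Mx1 promoter. The control group was Atad3afl/fl (2 samples), with the same floxed alleles and no Cre. Both groups were sampled on day 12 after poly I:C, the synthetic RNA that switches the Mx1 promoter on, so both had the interferon stimulus and only the deletion group had Cre. In this design an effect of Cre cannot be told apart from one of Atad3a loss, and Mx1 is active in many cell types, not in marrow progenitors alone. The sources used here give neither the age of the mice nor whether each sample is 1 animal, so p-values reflect only how much these samples vary, which may be technical variation.

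Serine is made in the cytosol from a glycolytic intermediate by Phgdh, Psat1 and Psph in turn. Serine hydroxymethyltransferases, Shmt1 in the cytosol and Shmt2 in mitochondria, then move a carbon unit from serine to tetrahydrofolate, and in mitochondria Mthfd2 oxidises the product toward formyltetrahydrofolate, which Aldh1l2 can burn to carbon dioxide. Proline is made from glutamate by Aldh18a1 and then Pycr1, both mitochondrial, and asparagine from aspartate and glutamine by Asns in the cytosol. Many of these genes are known targets of ATF4, the transcription factor of amino acid and mitochondrial stress.

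Atad3a itself was lower in the deletion group by its single probe, at log2 intensities of 10.001 and 9.83 in deletion samples, against 10.92 and 11.05 in control samples. The log2 change was -1.07 (SE 0.13, limma adjusted p = 0.00866), and adjusted p was 0.0646 without deletion replicate 2. Leaving out an array leaves 1 sample in its group, which is then assumed to vary like the other group, so a call lost that way can reflect the smaller design alone. It was not determined whether the probe lies within the deleted exons. Between 37.5% and 39.9% of probes were detected per array, where detected means a detection p under 0.05 against negative control beads, and arrays of 1 group correlated at 0.990 (deletion) and 0.986 (control) over the tested probes. Kit, Cd34 and Ly6a, defining genes of marrow progenitors, were detected on all 4 arrays, and so was Cd3e of T cells. Relabelling 2 against 2 arrays cannot give an exact permutation p below 0.333, and the number of arrays limits the precision.

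Of the 9 tested enzyme genes, 7 rose in deletion samples, 0 fell and 2 did not pass. Rose here means a limma adjusted p under 0.05 over all 18367 tested probes, with each gene read by its brightest probe. Among all 10405 tested genes 14.8% were called higher and 14.2% lower. Both deletion arrays lay above both control arrays for 9 of the 9 genes, which was so for 36.9% of all tested genes, while 36.1% had both deletion arrays below both controls. Aldh1l2 and Pycr1 entered the test only because they were detected in the deletion group, and so had to differ. Of the 7 enzyme genes detected in both groups, 5 rose and 2, Aldh18a1 and Asns, did not pass. Both deletion arrays lay above both control arrays for all 7 of them. The median log2 change of these 7 was 1.44, against 0.00037 over all tested genes. By probe, 11 of 15 rose, 0 fell and 4 did not pass, against 14.0% higher and 13.0% lower over all probes.

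**Figure D1:**
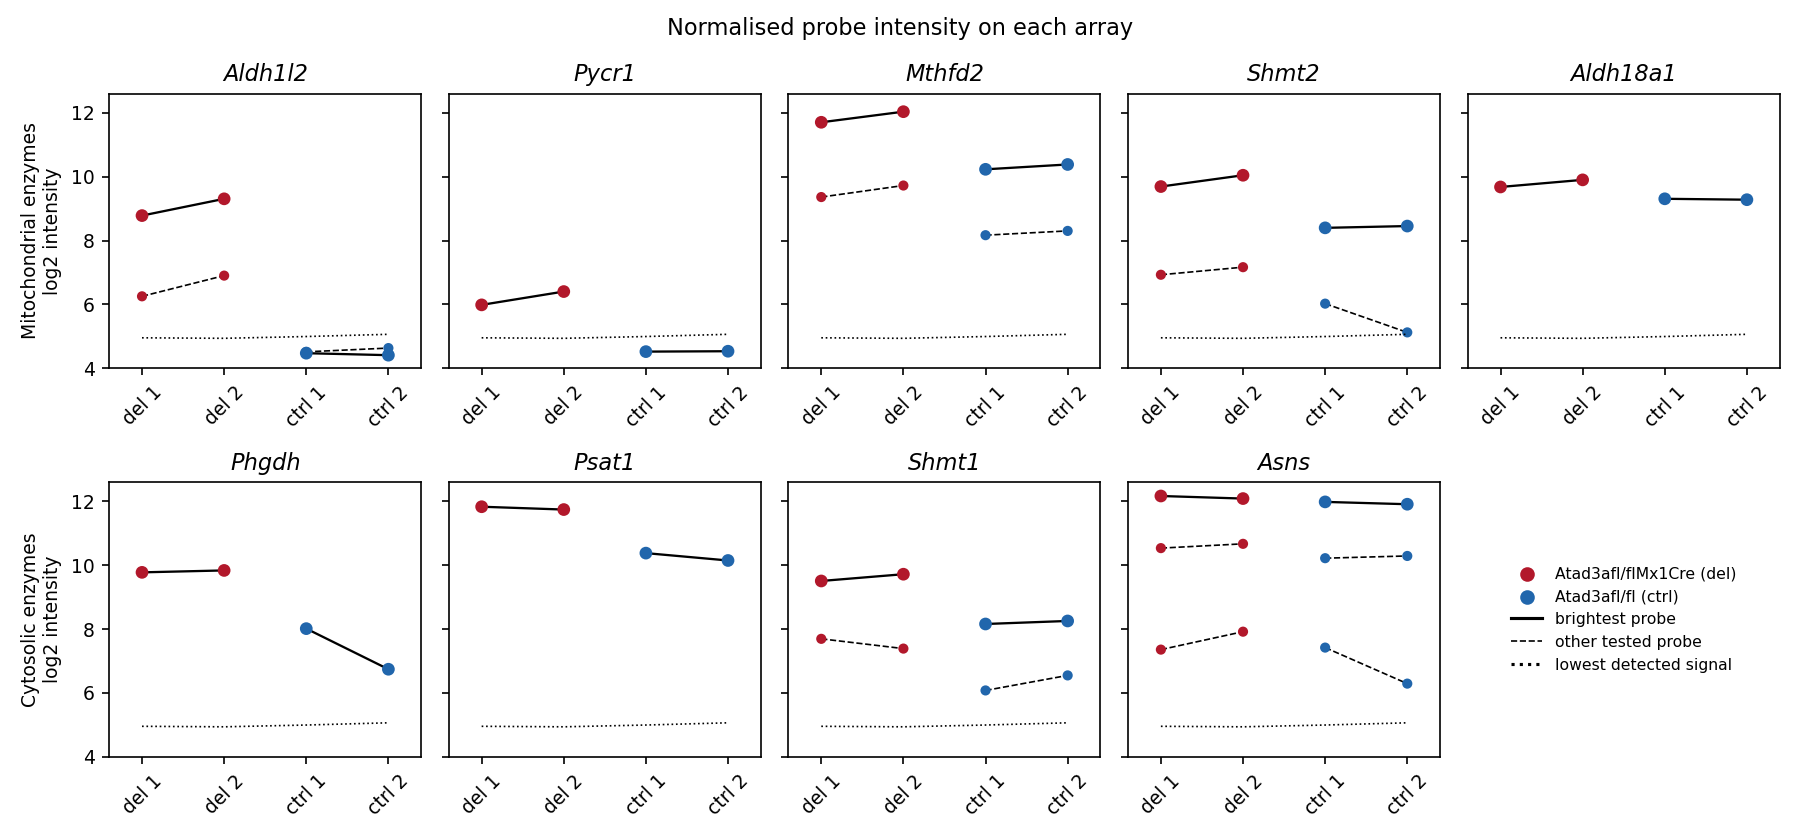
Normalised log2 intensity (vertical axis) of every tested probe of the 9 tested enzyme genes on the 2 Atad3afl/flMx1Cre arrays (red) and the 2 Atad3afl/fl arrays (blue), with solid lines for the brightest probe, dashed lines for other probes and a dotted line at the lowest detected signal of each array. Every gene's brightest probe read higher on both deletion arrays than on both control arrays, and Aldh1l2 and Pycr1 lay below the dotted line in controls.

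Transcripts for the opening steps of serine synthesis were higher. Phgdh, the dehydrogenase that commits a glycolytic intermediate to serine, read 9.77 and 9.83 on the log2 scale in deletion samples, against 8.01 and 6.74 in control samples. The deletion samples lay close together and the controls apart. Phgdh rose 5.37-fold (log2 change 2.43, SE 0.43, adjusted p = 0.0203). The size of that rise rested on the controls, since the log2 change was 3.06 when control replicate 1 was left out and 1.79 when control replicate 2 was, and the call was lost without deletion replicate 1 (log2 change 2.46, adjusted p = 0.0912) or deletion replicate 2 (2.40, adjusted p = 0.0976).

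Psat1, the aminotransferase of the next step, read 11.83 and 11.74 in deletion samples, against 10.38 and 10.14 in control samples. Both groups were tight and did not overlap. Its rise was 2.87-fold (log2 change 1.52, SE 0.14, adjusted p = 0.00469). Psph, the phosphatase that finishes the pathway, could not be measured: its only probe gave raw signals of 97.0 and 96.6 in deletion samples and 83.8 and 91.7 in control samples, and was not detected on any of the 4 arrays.

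Both serine hydroxymethyltransferases rose. Shmt2, the mitochondrial isozyme, read 9.69 and 10.04 in deletion samples, against 8.40 and 8.45 in control samples. It rose 2.71-fold (log2 change 1.44, SE 0.16, adjusted p = 0.00705). Shmt1, the cytosolic isozyme, read 9.50 and 9.72 in deletion samples, against 8.16 and 8.25 in control samples. For both genes every deletion array lay above every control array. Shmt1 rose 2.65-fold (log2 change 1.40, SE 0.13, adjusted p = 0.00527). The dimmer probe of each gene rose as well, with log2 changes of 1.47 (SE 0.32) for Shmt2 and 1.23 (SE 0.21) for Shmt1. The change of Shmt2 exceeded that of Shmt1 by 0.036 on the log2 scale, with an exact two-sided permutation p of 1 where 0.333 is the smallest that 2 against 2 arrays allow, and by 0.14 over the mean of all detected probes.

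The next mitochondrial folate enzymes rose too. Mthfd2, the dehydrogenase and cyclohydrolase that is high in proliferating and embryonic cells, read 11.70 and 12.03 in deletion samples, against 10.23 and 10.38 in control samples. The groups were well apart. It rose 2.95-fold (log2 change 1.56, SE 0.16, adjusted p = 0.00613), and its dimmer probe 2.47-fold (SE 0.17 on the log2 scale, adjusted p = 0.00953).

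Aldh1l2, the mitochondrial formyltetrahydrofolate dehydrogenase, had the largest change of the enzymes and ranked 4 from the top of the 10405 genes. Its brightest probe read 8.78 and 9.31 in deletion samples, against 4.48 and 4.41 in control samples, where it was not detected. The rise was therefore at least 16.1-fold on the background-corrected scale (limma adjusted p = 0.0014). This bound takes the higher of the probe's own signal and the lowest detected signal as the level in each control. A second probe, also undetected in controls, read 6.26 and 6.90 in deletion samples, against 4.52 and 4.64 in control samples. On the same scale it rose at least 2.92-fold (limma adjusted p = 0.00842). The probes thus gave the same direction and different sizes. The remaining Aldh1l2 probe was not detected on any array. For a gene this dim in controls the size also depends on background correction: the fitted log2 change of the brightest probe was 4.60, against 2.66 without background correction and 2.48 with the authors' processed values.

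The proline enzymes differed from each other. Pycr1, the reductase of the last step, read 5.99 and 6.40 in deletion samples, against 4.53 and 4.54 in control samples, where it was not detected. It rose at least 2.24-fold on the background-corrected scale (limma adjusted p = 0.00627), and a second probe was not detected on any array. Without background correction its fitted log2 change was 0.64, against 1.66 with it, and it was 0.56 with the authors' processed values. Aldh18a1, which makes the precursor of proline and ornithine from glutamate, read 9.68 and 9.90 in deletion samples, against 9.31 and 9.28 in control samples. The groups did not overlap, but the log2 change of 0.50 (95% interval 0.15 to 0.84) did not pass (adjusted p = 0.0531). It did pass under 6 of the alternatives, with limma adjusted p from 0.0197 to 0.0413, and not under the others. Of those 6, the mean of all detected probes held only the 1 tested Aldh18a1 probe, with the log2 change unchanged. Median scaling lowered the change to 0.30 (adjusted p = 0.167), and leaving out 1 array gave 0.38 to 0.61.

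Asns, the asparagine synthetase, did not pass by any of its probes. Its brightest probe read 12.16 and 12.08 in deletion samples, against 11.98 and 11.90 in control samples. The fold was 1.13 with a 95% interval of 0.919 to 1.40 (log2 change 0.18, SE 0.12, adjusted p = 0.294). For the second probe the log2 change was 0.35 (adjusted p = 0.0959). For the dimmest it was 0.78, with an interval of -0.33 to 1.89 (adjusted p = 0.229), and the groups overlapped. The intervals of the brighter pair of probes end at 1.40-fold and 1.58-fold. Asns ranked 3722 from the top of the 10405 genes, while the 7 enzymes that rose ranked between 4 and 210.

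**Figure D2:**
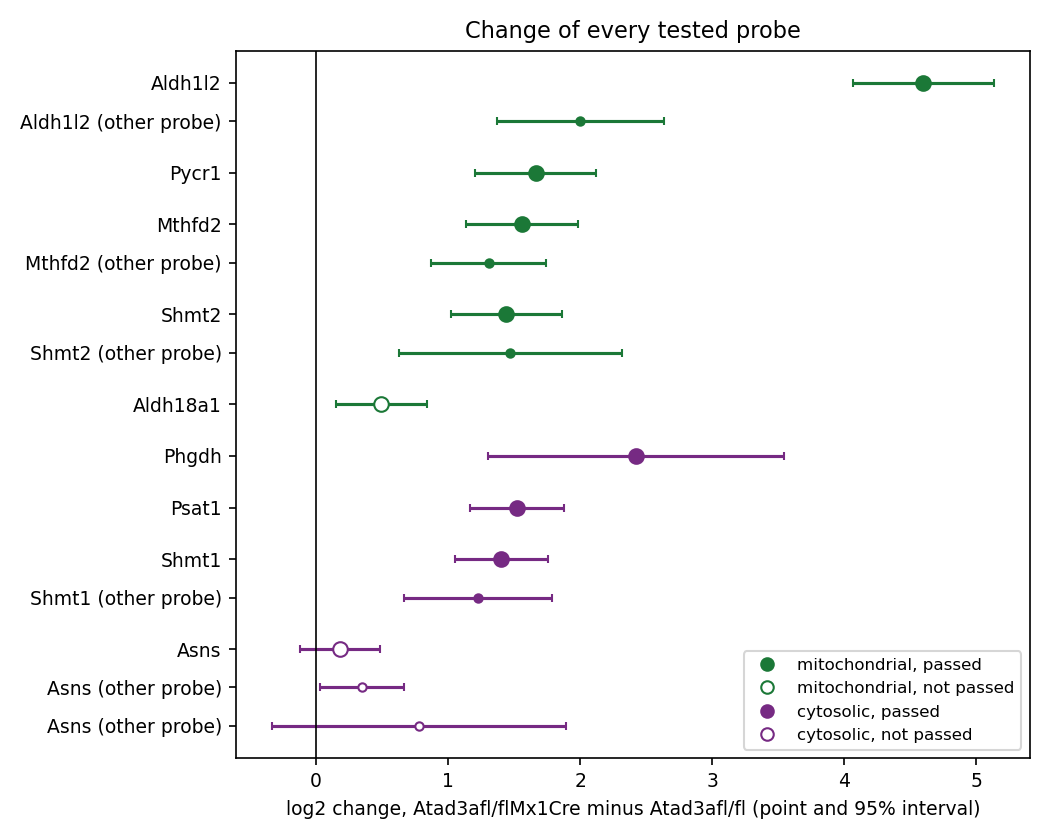
Log2 change, Atad3afl/flMx1Cre minus Atad3afl/fl (horizontal axis), with its 95% interval for each of the 15 tested probes, green for mitochondrial and purple for cytosolic enzymes; large points are each gene's brightest probe and open points did not pass. Apart from the brightest Aldh1l2 probe, the intervals of mitochondrial enzymes lie within the range that those of cytosolic enzymes cover, and the open points are Aldh18a1 and the 3 Asns probes.

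**Figure D3:**
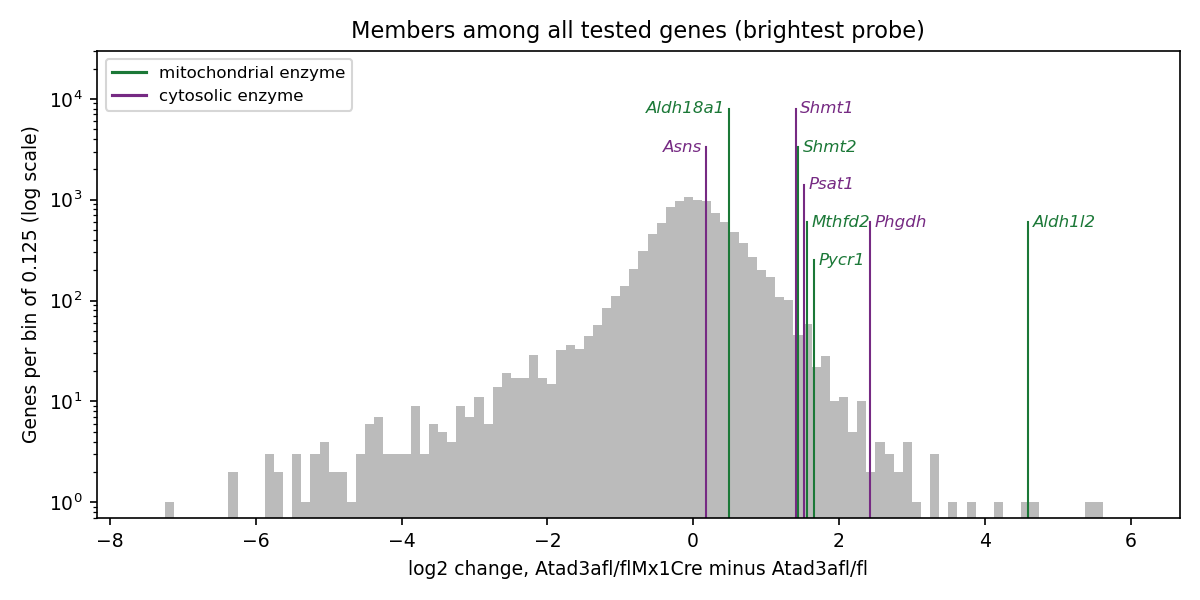
Distribution of the log2 change, Atad3afl/flMx1Cre minus Atad3afl/fl, over 10405 tested genes (grey, log vertical axis), with lines at the fitted change of the 9 enzyme genes. Asns and Aldh18a1 fall within the bulk and the other 7 in the right tail.

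The proximal promoters of Asns, Pycr1 and Phgdh are shown because the first is the classic ATF4 target of the set, the second is the other enzyme with a match to the same motif, and the last had the largest rise of the cytosolic enzymes. Each runs from 250 bases before to 50 after the annotated start, 5′ to 3′ on the gene's strand, from RefSeq on GRCm38.p6: Asns at chr6:7693160-7693459 (minus strand), Pycr1 at chr11:120643699-120643998 (minus strand) and Phgdh at chr3:98339920-98340219 (minus strand). Capitals mark TGATGNAA, the core of the C/EBP-ATF response element, searched on both strands.
Asns: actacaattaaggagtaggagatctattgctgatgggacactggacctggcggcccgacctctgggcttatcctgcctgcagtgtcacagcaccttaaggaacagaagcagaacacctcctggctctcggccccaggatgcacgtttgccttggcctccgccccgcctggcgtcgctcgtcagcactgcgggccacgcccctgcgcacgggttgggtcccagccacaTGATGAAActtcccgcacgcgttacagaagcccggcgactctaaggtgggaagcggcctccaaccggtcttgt
Pycr1: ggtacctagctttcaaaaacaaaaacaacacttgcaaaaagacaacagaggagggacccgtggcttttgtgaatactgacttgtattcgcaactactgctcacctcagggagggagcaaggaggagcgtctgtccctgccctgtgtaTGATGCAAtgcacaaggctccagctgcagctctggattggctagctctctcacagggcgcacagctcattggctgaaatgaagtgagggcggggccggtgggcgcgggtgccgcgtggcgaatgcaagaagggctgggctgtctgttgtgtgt
Phgdh: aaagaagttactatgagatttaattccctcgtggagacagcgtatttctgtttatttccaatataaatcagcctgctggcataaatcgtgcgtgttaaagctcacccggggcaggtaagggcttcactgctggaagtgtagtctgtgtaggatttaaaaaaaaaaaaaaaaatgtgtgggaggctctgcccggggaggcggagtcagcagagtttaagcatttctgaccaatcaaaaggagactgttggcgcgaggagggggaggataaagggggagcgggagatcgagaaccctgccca
The motif starts 23 bases before the annotated start of Asns and 103 bases before that of Pycr1. RefSeq windows were matched for 9 of the 10 genes (10 windows, Aldh1l2 not among them), and 2 windows held it, against 3.97% of all 32851 promoter windows. Of the 2 genes whose windows hold the motif, Pycr1 rose and Asns did not pass, and the other enzymes with a window that rose, Phgdh, Psat1, Shmt1, Shmt2 and Mthfd2, hold none. The E-box CACGTG, a motif of Myc and related factors, was in 1 of the 10 windows, that of Aldh18a1, against 7.15% of all windows.

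Mitochondrial and cytosolic enzymes were compared by the size of their change. Of the 3 mitochondrial enzymes detected in both groups, Mthfd2 and Shmt2 rose and Aldh18a1 did not pass, with a median log2 change of 1.44. Of the 4 tested cytosolic enzymes, all detected in both groups, 3 rose, with a median of 1.46. With Aldh1l2 and Pycr1, which entered only through the deletion group, the mitochondrial median was 1.56, or 1.44 with both at their bounds. The gap between the medians over all tested enzymes was 0.098, and it was -0.037 on deletion replicate 1 and 0.23 on deletion replicate 2 when each was set against the control mean. It also turned negative, to -0.11, with the authors' processed values. By deletion array, the mitochondrial median was 1.40 on deletion replicate 1 and 1.73 on deletion replicate 2, and the cytosolic one 1.43 and 1.49.

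Among isozyme partners outside the set, Mthfd1 fell by its brightest probe and Aldh1l1 did not pass. Mthfd1, the trifunctional cytosolic counterpart of Mthfd2, read 9.66 and 9.82 in deletion samples, against 10.88 and 11.13 in control samples. It fell by 1.27 on the log2 scale (SE 0.15, adjusted p = 0.00765), and the change of Mthfd2 exceeded it by 2.83 (exact two-sided permutation p = 0.333, again the smallest possible). By a dimmer Mthfd1 probe the change was -0.36 (adjusted p = 0.531), and the call was lost without deletion replicate 1 (adjusted p = 0.0559). Aldh1l1, the cytosolic counterpart of Aldh1l2, was detected in controls only and entered the test only through them. On the background-corrected scale its bound was at least 1.25-fold lower in deletion samples. It missed the threshold (limma adjusted p = 0.0554). Its fitted log2 change was -0.15 without background correction (adjusted p = 0.190) and -0.13 with the authors' processed values (adjusted p = 0.222). It passed with cyclic loess (adjusted p = 0.04997). It also passed where genes were read by the mean of their detected probes (0.0369). That mean held only its 1 tested probe, with the log2 change unchanged at -0.45. Mthfd2l, a mitochondrial isozyme of Mthfd2, was not detected on any array, and Mthfd1l was not analysed here.

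Most other folate genes that were tested did not pass, which was so for 7390 of all 10405 tested genes. Over all tested genes 14.8% were called higher and 14.2% lower. Those are the shares to set beside the counts of this list and of the lists that follow. Of 7 other mitochondrial folate genes tested 0 rose and 1 fell, with a median log2 change of 0.12. These were Dld, Iba57, Mtfmt, Sfxn1, Sfxn2, Sfxn3 and Slc25a32. The listed Mthfd1l, Mthfd2l, Gldc, Amt, Gcsh, Dmgdh and Sardh were not tested, so most mitochondrial folate enzymes outside the members were not measured here. The gene that fell was Iba57, an iron-sulfur cluster assembly factor (log2 change -0.98, SE 0.19), and its call was lost without deletion replicate 1 or 2 (adjusted p = 0.114 and 0.126). Of 10 other cytosolic folate genes tested 2 rose and 1, Mthfd1, fell, with a median of -0.25. The genes that rose were Mthfs, which recycles formyltetrahydrofolate (0.57, SE 0.12), and Atic, of purine synthesis (0.56, SE 0.12). Both calls were lost when control replicate 2 (adjusted p = 0.0780 for Mthfs and 0.0795 for Atic), deletion replicate 1 (0.135 and 0.129) or deletion replicate 2 (0.169 and 0.172) was left out. Atic was also lost with median scaling (0.0832) and with the mean of its probes (0.0512).

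The remaining proline genes went down where they passed. Of 7 tested 0 rose and 3 fell, with a median of -0.42. They included Aldh4a1, of proline breakdown (log2 change -0.60, SE 0.12), and Oat, the ornithine aminotransferase (-0.53, SE 0.12). Each of these calls was lost without any 1 of the 4 arrays, with adjusted p from 0.0514 to 0.151 for Aldh4a1 and from 0.0664 to 0.188 for Oat. The call on Aldh4a1 was also lost with the mean of its probes (adjusted p = 0.0543).

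Among genes of aspartate, glutamate and glutamine, 2 of 9 rose and 1 fell, with a median of 0.47. Gpt2, the mitochondrial alanine aminotransferase, read 7.48 and 8.05 in deletion samples, against 5.34 and 5.04 in control samples, of which 1 detected it. It rose by a log2 change of 2.57 (SE 0.24, adjusted p = 0.00494), or 1.34 without background correction and 1.18 with the authors' processed values. Gls2, the liver-type glutaminase, was not detected in deletion samples. It entered the test only through controls, and so had to differ. Gls2 was at least 3.83-fold lower in deletion samples on the background-corrected scale (limma adjusted p = 0.00480). Its fitted log2 change was -0.92 without background correction and -0.78 with the authors' processed values.

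Among genes that use or carry serine, 2 of 10 rose and 2 fell, with a median of -0.023. Cth, the enzyme that makes cysteine from serine-derived cystathionine, read 7.11 and 7.15 in deletion samples, against 4.42 and 4.45 in control samples, where it was not detected. Cth entered the test only through deletion samples, and so had to differ. It rose at least 4.27-fold on the background-corrected scale (limma adjusted p = 0.00116). Its fitted log2 change was 1.21 without background correction and 1.07 with the authors' processed values. Slc1a4, a transporter of serine and alanine, rose by a log2 change of 2.45 (SE 0.16), or 1.36 without background correction and 1.22 with the authors' processed values. Sdsl, a serine dehydratase-like enzyme, fell by 1.57 on the log2 scale (SE 0.17). Serinc5, a membrane protein of the serine incorporator family, was undetected in deletion samples. It entered the test only through controls, and so had to differ. Serinc5 was at least 2.00-fold lower in deletion samples on the background-corrected scale (limma adjusted p = 0.00373). Its fitted log2 change was -0.59 without background correction and -0.53 with the authors' processed values. In the methionine cycle 1 of 6 genes rose and 0 fell, with a median of -0.0057. That gene was Mtap, of methionine salvage (0.89, SE 0.11), and its call was lost without deletion replicate 1 or 2 (adjusted p = 0.0666 and 0.0704) with the change at 0.90 and 0.89.

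**Figure D4:**
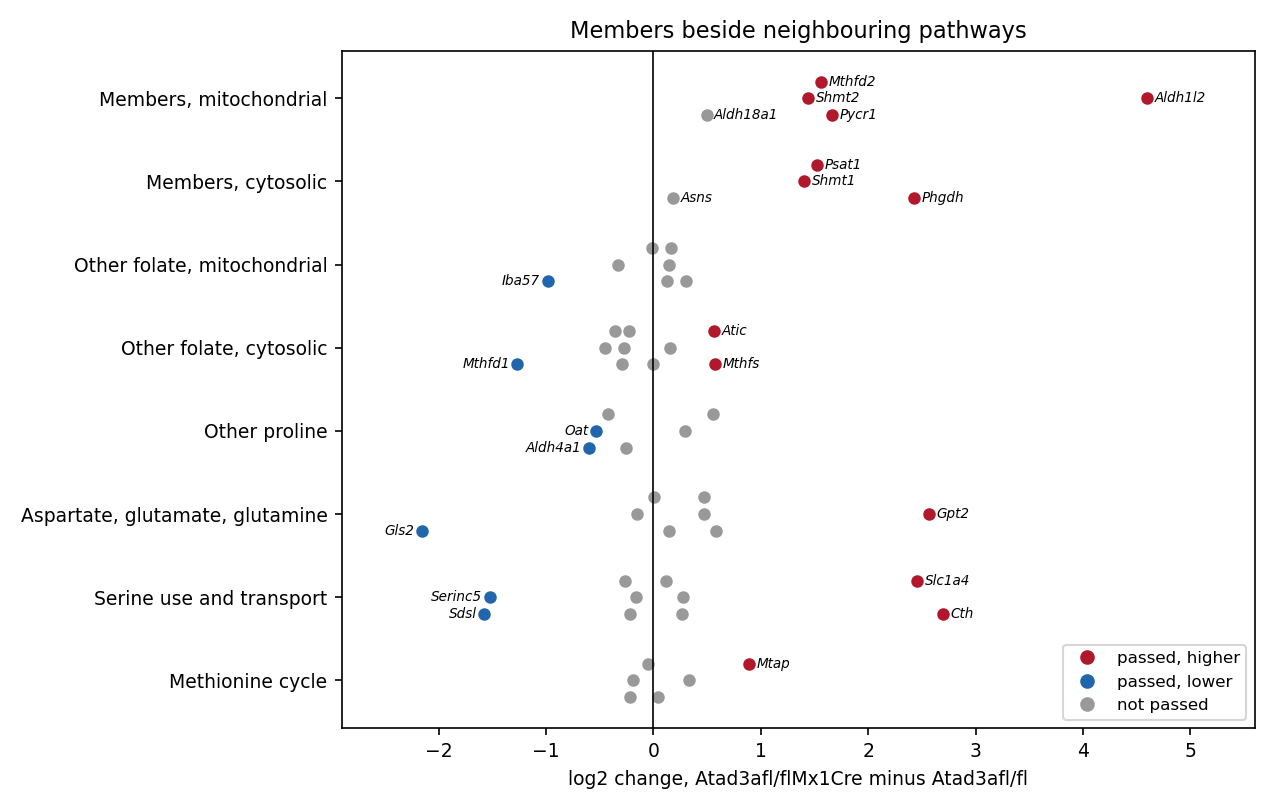
Log2 change, Atad3afl/flMx1Cre minus Atad3afl/fl (horizontal axis), of tested genes in 8 groups (the genes not reported here are left out), each read by its brightest probe, with red for genes that rose, blue for genes that fell and grey for genes that did not pass. In the upper pair of rows 7 of 9 enzymes are red. In the 6 rows of neighbouring pathways most genes are grey, and 7390 of all 10405 tested genes likewise did not pass.

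Of 11 regulators tested, 6 rose and 2 fell, with a median log2 change of 0.70. Trib3, a pseudokinase induced by ATF4, rose by a log2 change of 5.57 (SE 0.16) by its brightest probe, and its other probes rose by 2.57, with controls undetected, and 2.12. The mean of the Trib3 probes gave 3.42, and the brightest gave 3.93 without background correction. The stress factor gene Atf5 rose by 3.32 (SE 0.25), or 2.83 without background correction and 2.92 with the authors' processed values. Ddit3 rose by 1.43 (SE 0.11) by its brighter probe and by 0.68 by its dimmer one. Cebpb, a partner of ATF4 at the motif shown above, rose by 1.17 (SE 0.23). The call on Cebpb was lost without deletion replicate 1 or 2 (adjusted p = 0.0931 and 0.127). Atf4, whose protein is controlled largely at translation, did not pass by its brightest probe, which read 11.67 and 11.84 in deletion samples, against 11.71 and 11.58 in control samples (log2 change 0.11, SE 0.13, adjusted p = 0.559; -0.030 with median scaling).

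Markers of several blood cell types differed between the groups. In bulk samples, fewer cells of a type and less RNA per cell cannot be told apart. Of 13 tested erythroid markers 0 rose and 11 fell, and their summed normalised intensity was 3068 to 10133 in deletion samples, against 67722 to 69440 in control samples. Of 10 B lymphoid markers 10 fell, with sums of 1180 to 1552 in deletion samples and 17116 to 17295 in control samples, and Rag2 was undetected in deletion samples. Stem and progenitor markers rose in 7 of 9 cases and fell in 1 (sums of 10393 to 10768 in deletion samples and 5303 to 5464 in control samples). The marker that fell was Kit (log2 change -0.82, limma adjusted p = 0.0346). Ly6a had the largest rise of this list, at 12.13 and 12.16 in deletion samples against 9.66 and 9.56 in control samples, and bright markers weigh most in these sums. T and NK markers rose in 7 of 10 (18829 to 23419 in deletion samples and 9431 to 9959 in control samples). Cd4 was undetected in controls but did not pass (adjusted p = 0.140). Monocyte and dendritic markers rose in 6 of 10 (11043 to 11502 in deletion samples and 5648 to 5733 in control samples). Cd14 was undetected in controls but did not pass (adjusted p = 0.235).

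Megakaryocyte markers rose in 5 of 7 and fell in 1 (2437 to 3504 in deletion samples and 1287 to 1342 in control samples), and Gp1bb was undetected in controls. Stroma and endothelium markers rose in 3 of 5 (2597 to 2645 in deletion samples and 1479 to 1590 in control samples). Cdh5 and Col1a2 were undetected in controls, and of these Cdh5 did not pass (adjusted p = 0.0835). Neutrophil markers rose in 2 and fell in 2 of 10 (34490 to 35224 in deletion samples and 37703 to 40081 in control samples). Of 15 proliferation genes 0 rose and 12 fell (25890 to 26310 in deletion samples and 42565 to 45856 in control samples), with Ccna2 undetected in deletion samples. Markers undetected on all 4 arrays were Hbb-b1 and Epb42 (erythroid), Pax5 (B lymphoid), Cd8a and Ncr1 (T and NK), Itgam (monocyte), Flt3 and Hlf (stem and progenitor), Itgb3 (megakaryocyte), Mmp8 (neutrophil), Bub1 (proliferation) and Col1a1, Col3a1 and Lepr (stroma). The part of these shifts in the enzyme changes was not tested.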

How the data were processed

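Biotin-labelled cRNA made from total RNA was read on 1-colour Illumina mouse WG-6 v2 arrays, per the labels' protocols. The deposited scanner table holds a non-normalized signal intensity and a detection p-value for each of 45281 probes per array, per the file headers. The submitters' processing notes name GenomeStudio, with its version and background handling not stated there. The authors' processed intensity table has the same lowest and highest value in each column and was used as an alternative only (log2 taken here). Its column medians were 100.6 on deletion arrays and 100.5 on control arrays, it keeps each array's scanner ranks and a linear scale, and no source used here gives the authors' method.

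R 4.3.3 with limma 3.58.1 was used for background correction of the signals by the neqc steps (negative controls inferred from the detection p-values, offset 16), quantile normalization and log2 transformation. The 18367 probes detected at p under 0.05 on 2 or more of the 4 arrays were kept. Genes undetected in a whole group passed this filter only through the other group, and so had to differ. The platform table named 34885 probes, 34807 of them updated by Entrez ID through RefSeq (GRCm38.p6), 18 with several genes were left unnamed, and the array's own name added 1722 where it matched a RefSeq symbol without a platform probe, which includes Pycr1. Platform names can be old. The brightest detected probe represents a gene. Groups were compared with lmFit and eBayes, which had 2 residual and 2.72 prior degrees of freedom. P-values were adjusted by Benjamini-Hochberg over the 18367 probes, with a threshold of 0.05, and the fit was tested on simulated data. Changes are deletion minus control. The members, lists and rules were chosen with earlier results of these data known. Genes named are all members, Atad3a, Atf4, isozyme partners, and, from each other list, up to 4 called genes by size of change; a few genes that this rule names are not reported here. Alternatives were other background corrections, normalizations, detection filters and variance priors, the replicate block, the authors' values, each array left out and the mean of all detected probes.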

Additional observations from a re-analysis of the deposited data

How the results depend on the processing

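Between 6 and 8 enzyme genes rose under the 14 alternatives run, and 0 fell under each. With 1 array left out 6 to 7 rose, and a strict filter, detection p under 0.01 on each of the 4 arrays, left 7 enzyme genes to test. The gap between the mitochondrial and cytosolic medians turned negative with the authors' processed values (-0.11), with no background correction (-0.075), with normexp that uses no control probes (-0.055) and with the strict detection filter (-0.023), and ran from -0.037 to 0.23 with 1 array left out; the cause was not tested. The Shmt2 minus Shmt1 change was 0.14 with the mean of all detected probes. Atad3a ran from -1.15 to -0.98 with 1 array left out. Over all genes, leaving out 1 array gave 293 to 1309 higher and 435 to 1371 lower genes, against 1536 and 1479 with all 4. Median scaling gave 1212 and 1845, so that 39.6% of calls were higher against 50.9%, and moved the median of all genes to -0.11; Asns was 0.018 there, and Atf4 turned to -0.030. The labels give both groups replicates 1 and 2 without saying that a number pairs samples, and deviations of same-numbered samples correlated at 0.025. With the replicate block 7 enzyme genes rose, 1255 genes were higher and 1155 lower, and of the other genes named Mthfs, Atic and Oat missed the threshold (adjusted p = 0.0595, 0.0606 and 0.0621). The signal over background limits Psph, which no array detected, and the size of the changes of genes near background. Aldh1l2, Aldh1l1, Pycr1, Cth, Gpt2, Slc1a4, Gls2, Serinc5 and Trib3 all changed less without background correction.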

Other observations

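The pair of Atf4 probes did not give the same result. The dimmer probe read 7.71 and 7.95 in deletion samples, against 7.04 and 6.23 in control samples, a log2 change of 1.19 (SE 0.30, limma adjusted p = 0.0444), while the brighter one, at 0.11, did not pass. The mean of both gave 0.65 (adjusted p = 0.0492).

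Probes under older names of the enzymes gave no detected signal. The Aldh18a1 probe named PYCS on the array and the Aldh1l2 probe named B230350I06RIK were not detected on any of the 4 arrays. A second Pycr1 probe, under the gene's current name, was not detected on any array either.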
